A study of Mus musculus with 18 samples.

Results

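The histone genes H1f2, H2bc4, H3c14, H1f0, H3f3a, H3f3b, H2az1 and H2az2 were followed through total, short-tailed and long-tailed RNA of mouse brain. The members were all probe sets annotated to these 8 genes alone. There were 12 such probe sets, for 7 of the 8 genes, among 28898 probe sets with a single gene symbol and 45141 in the table. Levels of H1f0 were not analysed here. The replication-dependent genes H1f2 (linker histone H1.2), H2bc4 (a core histone H2B) and H3c14 (a core histone H3) had 5 probe sets. The replacement genes H3f3a and H3f3b (both encoding histone H3.3) and H2az1 and H2az2 (both encoding forms of histone H2A.Z) had 7.

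Histone proteins package DNA into nucleosomes, and linker histone H1 binds the DNA between them. Replication-dependent histone genes supply the bulk of histone protein while DNA is copied, and most of their mRNAs end in a stem-loop bound by the protein SLBP instead of a poly(A) tail. Some of these genes also make polyadenylated transcripts, a form described in cells that have stopped dividing. Replacement histone genes are expressed outside S phase as well, and their mRNAs carry poly(A) tails.

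The study gave 18 arrays from 6 mice aged 6 weeks, with cortex and striatum dissected as one sample: 2 WT, 2 CPEB4 GT/+ and 2 CPEB4 KO animals. The protein CPEB4 binds mRNAs in the cytoplasm and regulates the length of their poly(A) tails, and the labels name the GT allele without describing it. Each animal gave an INPUT array (total RNA), a WASH array (RNA released from poly(U)-agarose with 25% formamide, enriched for short tails) and an ELUTED array (RNA released with 90% formamide, enriched for long tails). The labels compare these fractions and genotypes to follow changes of polyadenylation across the transcriptome. RNA amounting to 5 ng was amplified over 21 cycles before hybridisation. All values are log2 intensities, so a difference of 1 is a change of the array signal by a factor of 2, and differences are relative to the other RNAs on the same arrays.

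The mean level of Cpeb4 was lower in CPEB4 GT/+ than in WT, and lower again in CPEB4 KO, in all 9 combinations of its 3 probe sets and the 3 fractions, for example 8.31, 7.25 and 6.73 in INPUT for 1449931_PM_at. The labels do not place the deletion relative to these probes. Arrays of a group correlated at r = 0.966 to 0.994 across probe sets, which are not independent replicates. The highest of 23 nonspecific control probe sets averaged 5.61 over the arrays, and the highest on a single array was at 6.60 to 6.87 in INPUT, 5.07 to 5.17 in WASH and 5.18 to 5.60 in ELUTED. The mean of the 18S ribosomal RNA control probe sets, RNA without a poly(A) tail, ran from 13.18 to 13.27 in INPUT, from 12.38 to 12.89 in WASH and from 12.68 to 13.20 in ELUTED. Signal of untailed RNA was thus present in both poly(U) fractions.

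The series' files hold no sequence of the histone 3′ ends, where the stem-loop or tail lies. For 3 members the 120 bases at the other end, before the RefSeq start (assembly GRCm38.p6), are given. The bases read 5′ to 3′ on the gene's strand. The members are H1f2, H3c14 and H2az1, which had 3 different courses through the fractions. Capitals mark CCAAT on either strand, as CCAAT or ATTGG, a box common in histone promoters.
H1f2, chr13:23738687-23738806, + strand: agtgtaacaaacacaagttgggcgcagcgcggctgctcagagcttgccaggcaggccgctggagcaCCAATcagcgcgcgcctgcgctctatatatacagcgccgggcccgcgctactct
H3c14, chr3:96246565-96246684, + strand: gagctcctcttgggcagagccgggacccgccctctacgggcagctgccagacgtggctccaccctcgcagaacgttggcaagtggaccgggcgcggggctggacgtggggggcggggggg
H2az1, chr3:137864367-137864486, + strand: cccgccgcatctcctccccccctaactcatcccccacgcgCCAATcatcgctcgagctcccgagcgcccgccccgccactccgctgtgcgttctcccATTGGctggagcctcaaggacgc

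These windows held 1 match in H1f2, 0 in H3c14 and 2 in H2az1. The same windows of H3f3a, H3f3b, H2az2 and H1f0 held 1, 1, 2 and 0, so the counts did not sort by tail type. Among all 32851 RefSeq promoters, 21.3% held at least 1 match in a window of this length. A match is only a run of letters, and the absence of one says nothing of the factors that bind there. H2bc4 is named without a sequence.

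A single H3c14 probe set separated from the other members. H3c14 1460314_PM_s_at dropped about 4-fold from INPUT in both poly(U) fractions, whereas H1f2 and H2bc4, which belong to the same replication-dependent class, were higher in the short-tailed fraction than in INPUT. In INPUT its lowest, median and highest levels over the 6 animals were 8.62, 8.98 and 9.14. In WASH they were 6.62, 6.88 and 6.97, and in ELUTED 6.59, 6.81 and 7.03. Every INPUT array was above every WASH and ELUTED array, and the 2 poly(U) fractions overlapped.

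Against INPUT, H3c14 1460314_PM_s_at fell by 2.07 in WASH (SE 0.07, 4.19-fold, limma adjusted p = 1.26e-06) and fell by 2.13 in ELUTED (SE 0.10, 4.38-fold, adjusted p = 5.59e-05). These comparisons share the INPUT arrays. Of all 21673 probe sets tested, 3 had a lower WASH minus INPUT value and 5 a lower ELUTED minus INPUT value. ELUTED minus WASH was -0.06 (SE 0.08, adjusted p = 0.479), with SD 0.12 between the 6 animals. The WASH minus INPUT value stayed between -2.24 and -1.80 and was called in each of the 16 alternative settings. The _s_at name marks a probe set that matches transcripts of more than 1 gene, and histone H3 genes are near-identical copies, so its signal cannot be assigned to H3c14 alone.

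The other H3c14 probe set, 1442051_PM_at, gave other values. Its lowest, median and highest levels were 5.41, 5.85 and 6.07 in INPUT, 5.86, 6.20 and 6.50 in WASH, and 5.33, 5.63 and 5.89 in ELUTED. Its INPUT levels were below the highest nonspecific control of the INPUT arrays, so the probe set is a weak measure of the gene. It was higher in WASH than in INPUT by 0.43 (SE 0.06, adjusted p = 0.000277) and lower in ELUTED than in WASH by a difference of -0.53 (SE 0.11, adjusted p = 0.00214).

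**Figure D1:**
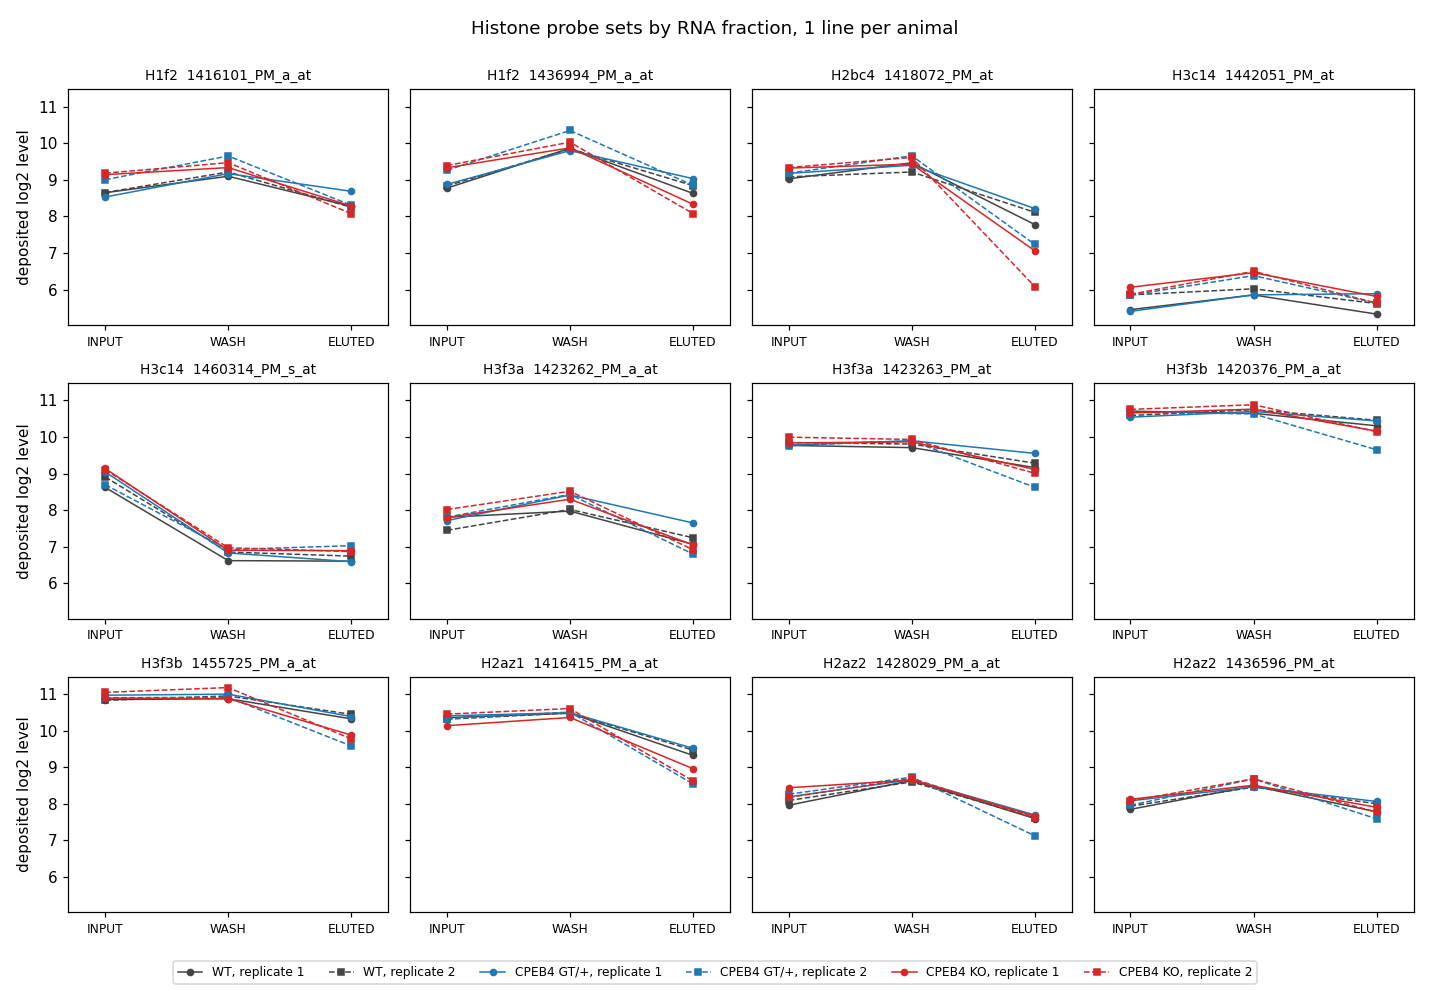
Deposited log2 level (vertical axis) of the 12 histone probe sets in INPUT, WASH and ELUTED (horizontal axis), with 1 line per animal and colours for genotype. H3c14 1460314_PM_s_at drops from a median of 8.98 in INPUT to 6.88 in WASH and 6.81 in ELUTED, while the other panels stay level or rise in WASH and lie lower in ELUTED.

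An H1f2 probe set, 1436994_PM_a_at, had the highest WASH minus INPUT value among the listed probe sets. For H1f2 1436994_PM_a_at the lowest, median and highest levels were 8.77, 9.07 and 9.39 in INPUT, 9.80, 9.87 and 10.35 in WASH, and 8.08, 8.73 and 9.03 in ELUTED. The WASH arrays stood above all INPUT and ELUTED arrays, with no overlap. WASH was higher than INPUT by 0.88 (SE 0.05, 1.84-fold, adjusted p = 1.13e-05), a value above those of 21447 of the 21673 probe sets. ELUTED minus WASH was -1.33 (SE 0.11, 2.52-fold, adjusted p = 3.77e-05).

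The second H1f2 probe set, 1416101_PM_a_at, moved the same way by smaller amounts. Its medians were 8.83 in INPUT, 9.27 in WASH and 8.28 in ELUTED. WASH exceeded INPUT by 0.46 (SE 0.05, adjusted p = 8.61e-05), and ELUTED minus WASH was -1.01 (SE 0.11, adjusted p = 0.000114). Both H1f2 probe sets were also lower in ELUTED than in INPUT. The difference was -0.55 (SE 0.11) for 1416101_PM_a_at, although 1 of the 6 animals had an ELUTED value above INPUT. It was -0.45 (SE 0.09) for 1436994_PM_a_at, where 2 of the 6 animals did. These means differed between genotypes. For H1f2 1436994_PM_a_at ELUTED minus INPUT averaged -1.15 in CPEB4 KO against -0.13 in CPEB4 GT/+ and -0.07 in WT, and for 1416101_PM_a_at -0.98 against -0.27 and -0.39. The genotypes were not tested against each other in ELUTED minus INPUT.

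H2bc4 1418072_PM_at had the largest drop among the members from the short-tailed to the long-tailed fraction. Its lowest, median and highest levels were 9.03, 9.18 and 9.34 in INPUT, 9.21, 9.45 and 9.66 in WASH, and 6.08, 7.51 and 8.22 in ELUTED. The ELUTED arrays were all below the other 12 and spread far more than they did, with an SD of 0.80 against 0.12 in INPUT and 0.16 in WASH. ELUTED minus WASH was -2.05 (SE 0.19, 4.14-fold, adjusted p = 5.31e-05), and 27 of the 21673 probe sets had a lower value. Against INPUT, ELUTED fell by 1.77 (SE 0.16, adjusted p = 0.00025).

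WASH exceeded INPUT for H2bc4 by only 0.28 (SE 0.06, adjusted p = 0.00482). That call was lost with arrays centred on their medians (0.10, adjusted p = 0.178), with quantile normalization (0.14, adjusted p = 0.0872) and in both models of 9 group means (adjusted p = 0.171 and 0.160). No setting gave a value below 0, so H2bc4 differed from H3c14 1460314_PM_s_at in the direction of its WASH value under every setting run.

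The replacement histones were, like H1f2 and H2bc4, lower in the long-tailed than in the short-tailed fraction. All 7 of their probe sets were called lower in ELUTED than in WASH, between -1.41 and -0.53, beside 46.4% of all tested probe sets. For each of the 7 all ELUTED arrays lay below all WASH arrays. The share of all probe sets with such a separation was not counted. Their WASH minus INPUT values ran from 0.02 to 0.54, with 4 of 7 called higher and 0 lower. Over all probe sets 42.6% were called higher and 21.5% lower. Against INPUT, 6 of 7 were called lower in ELUTED, beside 28.9% of all probe sets.

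H2az1 1416415_PM_a_at, encoding H2A.Z.1, a variant placed at promoters, dropped most among the replacement members. Its lowest, median and highest levels were 10.14, 10.34 and 10.45 in INPUT, 10.36, 10.48 and 10.60 in WASH, and 8.54, 9.14 and 9.52 in ELUTED. INPUT and WASH overlapped between animals, while all ELUTED arrays were lower. ELUTED minus WASH was -1.41 (SE 0.13, 2.66-fold, adjusted p = 5.51e-05). WASH minus INPUT was 0.15 (SE 0.05, adjusted p = 0.022), a call that held in 8 of 16 settings. It was lost in 7 with the same sign, and with arrays centred on their medians the value was -0.02 (adjusted p = 0.734).

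The probe sets of H2az2, encoding the related H2A.Z.2, were enriched in the short-tailed fraction. For H2az2 1428029_PM_a_at the medians were 8.18 in INPUT, 8.66 in WASH and 7.62 in ELUTED, and all WASH levels, from 8.60 to 8.73, were above all INPUT levels, from 7.96 to 8.44. WASH minus INPUT was 0.48 (SE 0.06) and ELUTED minus WASH was -1.11 (SE 0.09, adjusted p = 3.93e-05). For H2az2 1436596_PM_at these differences were 0.54 (SE 0.06) and -0.69 (SE 0.10, adjusted p = 0.000442), and its ELUTED level was not called against INPUT (-0.15, adjusted p = 0.127).

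H3.3 is deposited in active genes through the cell cycle, and the probe sets of its 2 genes gave differing WASH values. H3f3a 1423262_PM_a_at had medians of 7.80 in INPUT, 8.36 in WASH and 7.06 in ELUTED, and was higher in WASH than in INPUT by 0.51 (SE 0.06, adjusted p = 0.00016). H3f3a 1423263_PM_at had medians of 9.81, 9.88 and 9.14, and its WASH minus INPUT value was 0.02 (SE 0.05, adjusted p = 0.757). The 2 probe sets of H3f3a therefore disagreed on enrichment in WASH, but both were lower in ELUTED than in WASH (-1.15, SE 0.12, and -0.73, SE 0.12). With arrays centred on their medians the second was called lower in WASH than in INPUT, at -0.16 (adjusted p = 0.0248), whereas alignment on the hybridisation controls gave a higher call, at 0.29 (adjusted p = 0.000816).

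H3f3b was not called between INPUT and WASH. H3f3b 1455725_PM_a_at had lowest, median and highest levels of 10.83, 10.89 and 11.04 in INPUT, 10.87, 10.93 and 11.18 in WASH, and 9.58, 10.10 and 10.44 in ELUTED. Its WASH minus INPUT value was 0.05 (SE 0.05, adjusted p = 0.413), and ELUTED minus WASH was -0.90 (SE 0.11, adjusted p = 0.000133). The other H3f3b probe set, 1420376_PM_a_at, gave 0.07 (SE 0.06) and -0.53 (SE 0.10, adjusted p = 0.00141). Its fall from INPUT to ELUTED, -0.46 (adjusted p = 0.0128), was no longer called without WT replicate 1 (-0.42, adjusted p = 0.0711). A further probe set, annotated to both H3f3a and the pseudogene H3f3a-ps2, was left out of the tests; its ELUTED minus WASH values averaged -0.30 ± 0.17 (SD, n = 6) and were below 0 in all 6 animals.

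In counts, 11 of the 12 histone probe sets were called lower in ELUTED than in WASH and 0 higher, beside 72.9% of all tested probe sets called, 46.4% lower and 26.6% higher. Their median was -0.95, against -0.15 over all probe sets. Between WASH and INPUT, 8 were called higher and 1 lower, beside 64.1% of all probe sets called, 42.6% higher and 21.5% lower, with medians of 0.35 and 0.09. Between ELUTED and INPUT, 10 were called lower and 0 higher, beside 44.7% of all called, 28.9% lower and 15.8% higher, with medians of -0.64 and -0.04. All 12 probe sets had passed the filter on low values, a mean of 5.35.

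The balance of calls over all probe sets depended on scaling. Centring the arrays moved the median ELUTED minus WASH value of all probe sets to 0.14, with 9999 called higher and 6207 lower in place of 5755 and 10048, and the histones then had 11 lower and 1 higher, H3c14 1460314_PM_s_at at 0.22. Aligning the arrays on the hybridisation controls moved that median to -0.64, with 526 higher and 15363 lower, and all 12 histones were called lower. For WASH minus INPUT the median was -0.08 after centring (4969 higher, 8975 lower, against 9239 and 4660 as deposited) and 0.36 after aligning (16097 and 1015). The histones then had 6 higher and 2 lower, and 11 higher and 1 lower.

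**Figure D2:**
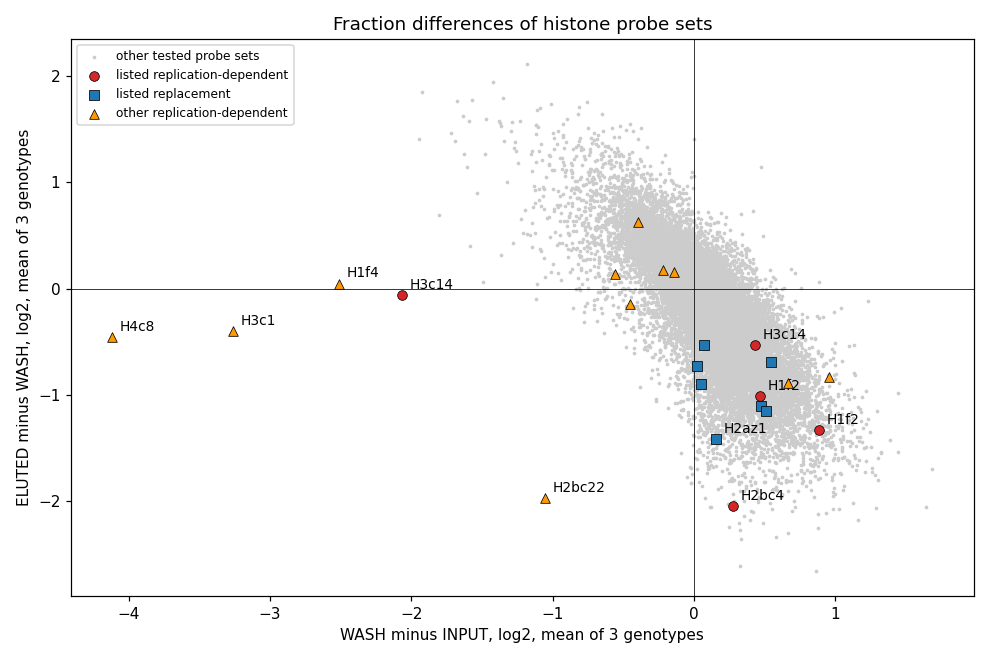
ELUTED minus WASH (vertical axis) against WASH minus INPUT (horizontal axis), both log2 and means over the 3 genotypes, for 21673 probe sets (grey) and histone classes (coloured). H3c14 at -2.07 on the horizontal axis stands far left of H1f2 and H2bc4, beside H1f4, H3c1 and H4c8, other replication-dependent genes.

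The array held 17 probe sets of 13 further replication-dependent histone genes, and 11 of them passed the filter on low values. Between WASH and INPUT, 9 of the 11 were called lower and 2 higher, with a median of -0.46, beside 21.5% of all probe sets called lower and 42.6% higher. Among the lower calls, H3c4 1427864_PM_at (-0.14) and H3c7 (-0.22) were lost with quantile normalization (limma adjusted p = 0.41 and 0.073). H1f6 (-0.40) was lost after alignment on the hybridisation controls (-0.13, limma adjusted p = 0.0769). In INPUT, H3c4 1427864_PM_at averaged 5.57, H1f6 6.17 and H3c7 6.63. These levels were below or within the range of the highest nonspecific control of the INPUT arrays, 6.60 to 6.87. The 4 lowest WASH minus INPUT values of all 21673 probe sets were those of H4c8, H3c1, H1f4 and H3c14 1460314_PM_s_at. H4c8 and H1f4 were chosen for naming after their values were seen.

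H4c8, a histone H4 gene, averaged 10.16 ± 0.21 (SD, n = 6) in INPUT, 6.05 ± 0.16 in WASH and 5.59 ± 0.25 in ELUTED. Its WASH minus INPUT value was -4.12 (SE 0.10, 17.3-fold, adjusted p = 1.77e-07). H3c1 1422948_PM_s_at, a histone H3 probe set that also matches several transcripts, averaged 12.26 ± 0.11, 9.0 ± 0.16 and 8.60 ± 0.38, a WASH minus INPUT value of -3.26 (SE 0.08). Both genes were thus lower in each poly(U) fraction than in INPUT in all animals, as H3c14 1460314_PM_s_at was.

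H1f4, encoding linker histone H1.4, took the other direction from its family member H1f2. It averaged 8.07 ± 0.18 in INPUT, 5.55 ± 0.09 in WASH and 5.60 ± 0.10 in ELUTED, levels in both poly(U) fractions that were near the nonspecific controls. WASH minus INPUT was -2.51 (SE 0.06, adjusted p = 1.77e-07) for H1f4 and 0.88 for H1f2 1436994_PM_a_at. The difference between the genes was not tested.

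Other genes of the class lay between these courses. H2bc22 1452540_PM_a_at, an H2B probe set, stepped down through the fractions, averaging 9.92 ± 0.14 in INPUT, 8.86 ± 0.14 in WASH and 6.89 ± 0.79 in ELUTED. Its ELUTED minus WASH value, -1.97 (SE 0.18), was close to that of H2bc4, another H2B gene. The second H2bc22 probe set, 1427762_PM_x_at, whose name marks possible cross-hybridisation, gave -0.15 (SE 0.08, adjusted p = 0.11). H3c15, at 0.95 (SE 0.12), and H2bc21, at 0.66 (SE 0.06), were the 2 called higher in WASH than in INPUT. Their INPUT means (5.69 and 5.48) were below the highest nonspecific control of the INPUT arrays, 6.60 to 6.87. H3c4 1427863_PM_at, an H3 gene, was lower in WASH than in INPUT by a difference of -0.56 (SE 0.07).

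**Figure D3:**
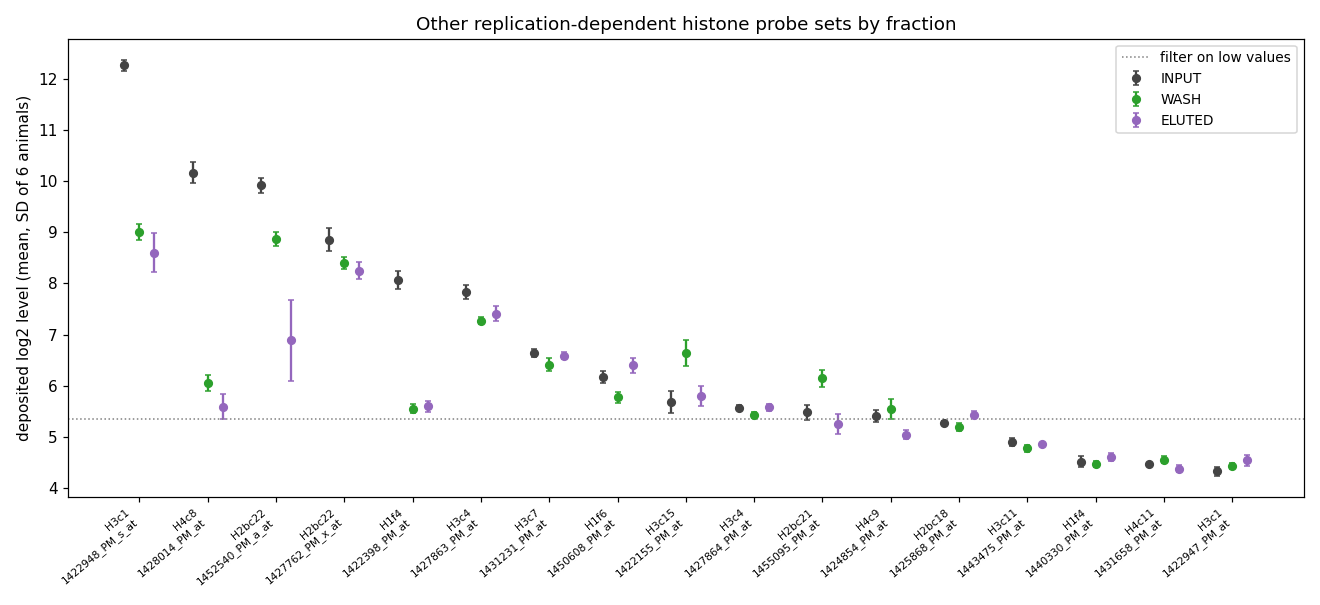
Deposited log2 level (vertical axis; mean and SD of 6 animals) of the 17 probe sets of other replication-dependent histones in each fraction. H3c1, H4c8 and H1f4 fall from INPUT to both poly(U) fractions (H4c8 from 10.16 to 6.05 and 5.59), H2bc22 falls in 2 steps, and the dotted line is the filter at 5.35.

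Genes around histone supply were mixed in ELUTED minus WASH, beside 26.6% of all tested probe sets called higher and 46.4% lower. Of 13 probe sets of histone mRNA processing genes, 4 were called higher and 8 lower, among them Lsm10, a subunit of the U7 particle that cuts histone pre-mRNA (-1.24, SE 0.10), and Srrt, a partner of the nuclear cap-binding complex (-0.32, SE 0.09). Slbp, named after its values were seen, gave -1.15 (SE 0.13) at 1460168_PM_at and 0.33 (SE 0.07) at 1430058_PM_at, so its probe sets disagreed in sign. Of 37 probe sets of histone chaperones, 10 were higher and 15 lower, near the shares over all probe sets. The 2 named for Npm1, a nucleolar chaperone, gave -1.56 (SE 0.23) and -0.41 (SE 0.10). Of 23 S phase probe sets, 7 were higher and 4 lower, with Pcna, the DNA polymerase clamp, at -1.30 (SE 0.16). Of 9 probe sets of other replacement histones, 1 was higher and 5 lower, including H2aj (-1.19, SE 0.18) and Macroh2a1 (-0.19, SE 0.07).

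Over the 18 arrays, the averaged course of the replication-dependent members was most like that of Cox8a (Pearson r = 0.968), Mrpl53 (0.967) and Aftph (0.966). That of the replacement members was most like Vps29 (0.995), Cript (0.994) and Srp9 (0.994). The first average combines unlike courses, since H3c14 1460314_PM_s_at correlated at -0.13 with H1f2 and 0.35 with H2bc4. All these correlations are descriptions over arrays that share their fractions and normalization. Between members, r with H3c14 1460314_PM_s_at ran from -0.25 to 0.42, and r among the other 6 genes, each by its highest probe set, from 0.68 to 0.98.

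The genotype comparison asked whether loss of CPEB4 changed the tail distribution of these mRNAs. With limma, 0 of the 12 histone probe sets were called in ELUTED minus WASH for CPEB4 KO against WT, CPEB4 GT/+ against WT or CPEB4 KO against CPEB4 GT/+, beside 0% of all probe sets in each. At an unadjusted p under 0.05 the counts were 3, 0 and 2 histone probe sets and 1377, 234 and 477 of all probe sets. With 2 animals a group, an exact test of 2 against 2 cannot go below p = 0.333.

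Among the 12 listed probe sets, H2bc4 had the widest gap between CPEB4 KO and WT. Its ELUTED levels were 7.78 and 8.11 in WT, 8.22 and 7.23 in CPEB4 GT/+, and 7.06 and 6.08 in CPEB4 KO. Its WASH levels were 9.46 and 9.21 in WT, 9.40 and 9.66 in CPEB4 GT/+, and 9.43 and 9.61 in CPEB4 KO. Both CPEB4 KO animals thus had lower ELUTED levels than all other animals, while in WASH the genotypes overlapped. ELUTED minus WASH averaged -2.95 in CPEB4 KO and -1.39 in WT, a difference of -1.55 (SE 0.47) that did not pass the test (adjusted p = 0.755; unadjusted 0.00979). Its value was -2.13 without CPEB4 KO replicate 1 and -0.97 without CPEB4 KO replicate 2. Of the 21673 probe sets, 8 had a lower CPEB4 KO minus WT value.

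H2bc22 1452540_PM_a_at showed a gap of like size. Its ELUTED minus WASH values were -1.19 and -1.01 in WT, -1.37 and -2.78 in CPEB4 GT/+, and -2.25 and -3.22 in CPEB4 KO, a CPEB4 KO minus WT difference of -1.63 (SE 0.45, adjusted p = 0.755). CPEB4 GT/+ replicate 2 lay with the CPEB4 KO animals. The other H2bc22 probe set gave -0.02 (SE 0.19).

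Of the 12 CPEB4 KO minus WT differences in ELUTED minus WASH, H2bc4 included, 11 were below 0, with a median of -0.34 against -0.02 over all probe sets. Both CPEB4 KO animals lay below both WT animals at 9 of the 12, beside 0% of all probe sets called. Over all probe sets the animals of these genotypes did not overlap at 50.7%, with CPEB4 KO lower at 29.2% and higher at 21.5%. The 11 probe sets of other replication-dependent histones had 5 differences below 0 and 6 above, with a median of 0.02. H3f3b 1455725_PM_a_at averaged -0.53 in WT and -1.20 in CPEB4 KO, a difference of -0.67 (SE 0.26, adjusted p = 0.755). H1f2 1436994_PM_a_at differed by -0.63 (SE 0.27, adjusted p = 0.755). H3c14 1460314_PM_s_at differed by 0.01 (SE 0.19), and H2az2 1428029_PM_a_at by -0.02 (SE 0.23).

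The CPEB4 GT/+ animals differed from each other more than the WT pair did. ELUTED minus WASH was lower in CPEB4 GT/+ replicate 2 than in CPEB4 GT/+ replicate 1 at 11 of the 12 histone probe sets, for example H2az1 at -1.96 against -0.97. In CPEB4 KO, replicate 2 was also below replicate 1, at every one of these probe sets. Examples are H2az1 at -1.98 against -1.40 and H2bc4 at -3.53 against -2.37. The share of all probe sets with this order was not counted, so the order is not a result about the histones. The ELUTED arrays differed as a whole in the spread of their values. For replicates 1 and 2 the SD over an ELUTED array was 1.90 and 1.78 in CPEB4 GT/+. It was 1.83 and 1.80 in CPEB4 KO, and 1.83 and 1.84 in WT. The part of this spread in the histone values was not tested. The CPEB4 GT/+ minus WT differences of the members ran from -0.44 to 0.10. For H2az1 it was -0.38 (SE 0.33, adjusted p = 1.00). These comparisons share the WT arrays with those of CPEB4 KO.

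**Figure D4:**
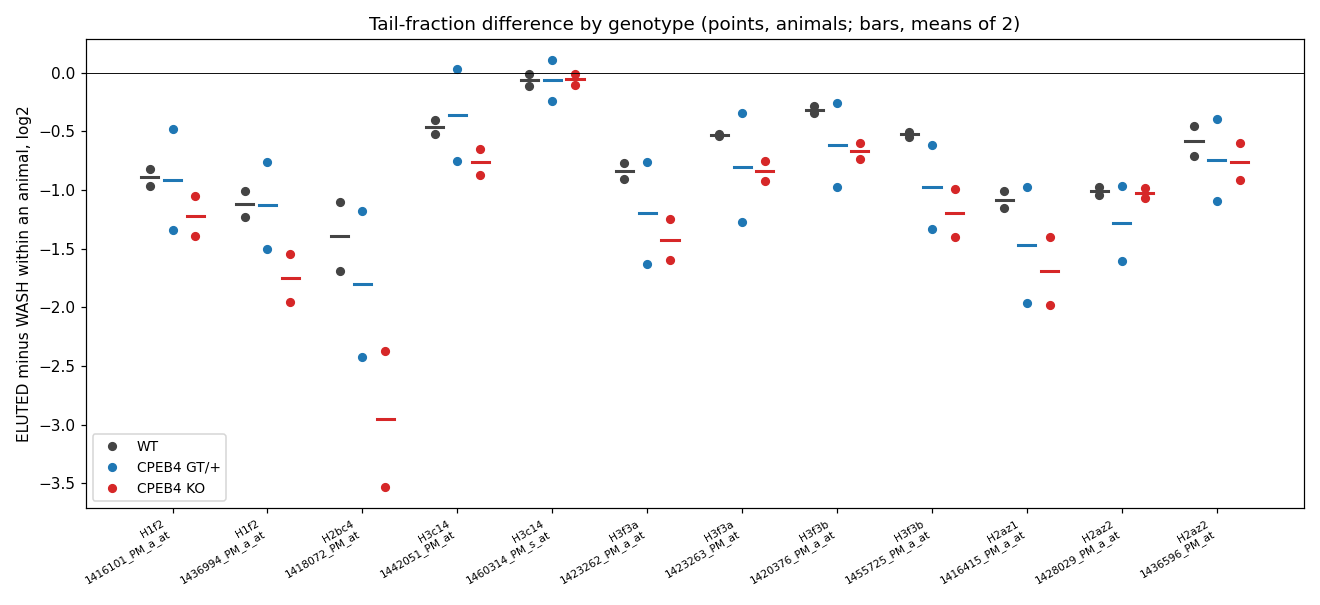
ELUTED minus WASH within each animal (vertical axis, log2) for the 12 histone probe sets, by genotype, with points for animals and bars for means of 2. H2bc4 spreads from -1.10 in WT to -3.53 in CPEB4 KO, and H3c14 1460314_PM_s_at stays between -0.24 and 0.11 in all genotypes.

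In total RNA, 0 of the 12 histone probe sets were called in any of the 3 genotype comparisons by limma, beside 0.0277% of all probe sets for CPEB4 KO against WT, 0% for CPEB4 GT/+ against WT and 0.00923% for CPEB4 KO against CPEB4 GT/+. At an unadjusted p under 0.05 there were 5, 0 and 1 histone probe sets, and 2380, 746 and 1736 of all. In bulk tissue, fewer cells of a type and less RNA per cell cannot be told apart.

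The replication-dependent members lay on the CPEB4 KO side in INPUT. H1f2 1436994_PM_a_at was at 8.77 and 8.83 in WT, 8.87 and 9.26 in CPEB4 GT/+, and 9.33 and 9.39 in CPEB4 KO, a CPEB4 KO minus WT difference of 0.56 (SE 0.14, adjusted p = 0.318). H2bc4 was at 9.03 and 9.08 in WT, 9.18 and 9.18 in CPEB4 GT/+, and 9.32 and 9.34 in CPEB4 KO, a difference of 0.27 (SE 0.09, adjusted p = 0.39). For all 5 probe sets of the class both CPEB4 KO animals were above both WT animals, with differences from 0.27 to 0.56. Over all probe sets the 2 genotypes were apart at 42.5%, in this order at 24.1% and in the reverse at 18.5%. The 11 probe sets of other replication-dependent histones ran both ways, with 6 differences above 0 and 5 below, from -0.25 (H1f6) to 0.27 (H1f4). The 7 replacement probe sets ran from -0.04 (H2az1) to 0.28 (H2az2 1428029_PM_a_at). The median over the 12 was 0.28, against 0.03 over all probe sets. After alignment on the hybridisation controls the median of all probe sets was 0.16, and H1f2 1436994_PM_a_at was called (0.69, adjusted p = 0.035).

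Marker means of most cell types also stood higher on the CPEB4 KO arrays in INPUT, with 0 markers called by limma. For 7 of the 9 marker lists, 3 of them neuronal, both CPEB4 KO animals were above both WT animals. Single probe sets had this order at 24.1%, and no such share was counted for means of lists. The INPUT arrays also differed as a whole in the spread of their values. The SD over an INPUT array was 1.92 and 1.95 in CPEB4 KO, 1.92 and 1.90 in CPEB4 GT/+, and 1.90 and 1.89 in WT. The part of this spread in the marker means was not tested. The mean of the 7 astrocyte markers was 9.34 to 9.39 in WT, 9.25 to 9.31 in CPEB4 GT/+ and 9.52 to 9.58 in CPEB4 KO, and that of the 7 microglia markers was 8.18 to 8.37, 8.28 to 8.39 and 8.46 to 8.55. The 5 endothelial markers with a probe set, of 6 listed, ran from 8.31 to 8.32, from 8.35 to 8.48 and from 8.55 to 8.61, and the 5 oligodendrocyte precursor markers, of 6, from 6.67 to 6.87, from 6.73 to 6.82 and from 6.94 to 7.0. The excitatory neuron list (6 of 7 markers) ran from 8.84 to 8.89 in WT and from 8.94 to 9.13 in CPEB4 KO, the striatal neuron list (6 of 8) from 8.88 to 8.99 and from 9.08 to 9.14, and the GABA interneuron list (6 of 6) from 10.01 to 10.03 and from 10.12 to 10.21. Oligodendrocyte markers (6 of 7) overlapped, at 9.93 in both WT animals and from 9.89 to 9.94 in CPEB4 KO, as did blood markers (3 of 5), from 9.58 to 9.80 and from 9.53 to 10.02. Of the 23 S phase probe sets, 4 were above 0 in CPEB4 KO minus WT (median -0.07) and 0 were called. The part of the marker differences in the histone values was not tested.

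**Figure D5:**
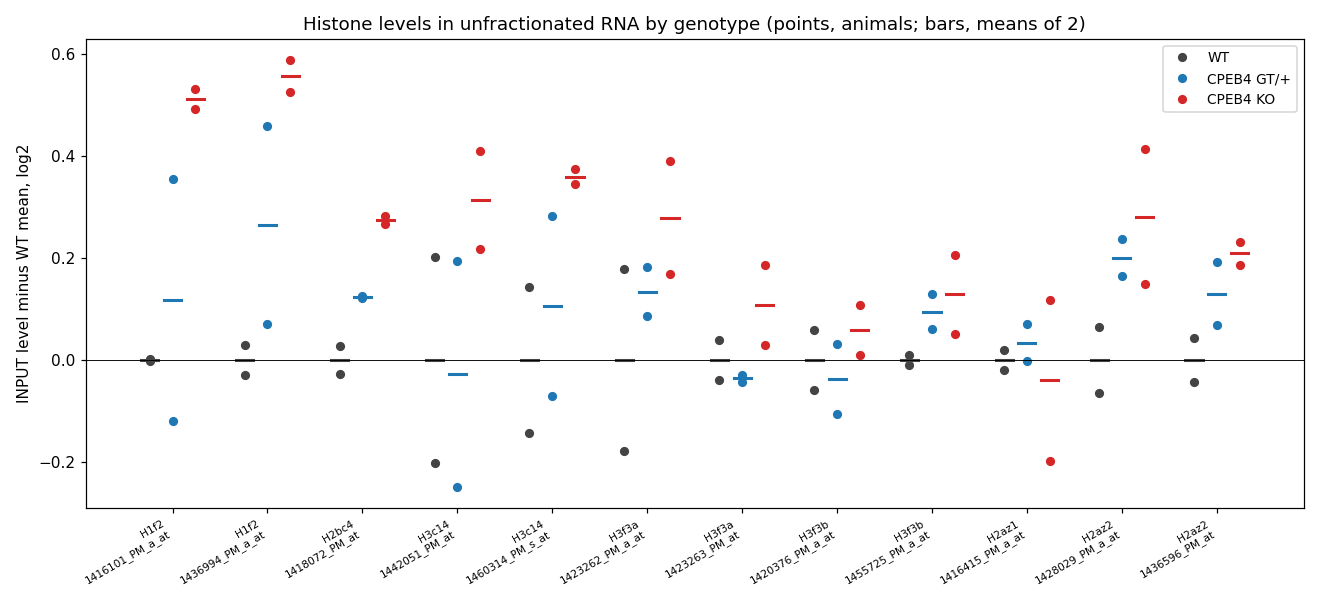
INPUT level minus the WT mean (vertical axis, log2) of the 12 histone probe sets by genotype, with points for animals and bars for means of 2. The CPEB4 KO means of H1f2 lie at 0.51 and 0.56 and those of H3f3b at 0.06 and 0.13, and none of these differences passed the test.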

How the data were processed

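The deposited table holds log2 values, which the submitters' processing notes credit to RMA run by the authors; version, annotation and strand were not given in the sources used here. The labels call the arrays PrimeView, while the probe set names carry a PM mark. Gene names came from the supplied probe table, which gave 28898 probe sets 1 symbol, 551 several and 15692 none (104 controls included). The lowest 25% by mean over 18 arrays were left out, and 21673 probe sets were tested.

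Within-animal differences of fractions, or the INPUT arrays, were fitted with genotype means in limma 3.58.1 (R 4.3.3; lmFit, contrasts.fit, eBayes without trend; 3 residual degrees of freedom). Over 9 comparisons, p-values were two-sided, Benjamini-Hochberg adjusted over all tested probe sets within each, and called under 0.05. SE is limma's, SD is between animals. Fractions were paired by the animal in the titles, and animals are taken from the labels as separate. The number of arrays limits precision.

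The members and lists were chosen with earlier results of these data known. Named genes are all members, Cpeb4, 3 other replication-dependent histones by level and up to 3 by called ELUTED minus WASH difference, 1 by each measure for every other list described, and the 3 most alike patterns outside histones; exceptions are stated. The fit was tested on simulated data. Alternatives covered filters, scalings, 1 probe set per gene, eBayes with trend, 9 group means (statmod 1.5.0 for the random block), a replicate block and leaving out each animal. Sequences came from RefSeq GRCm38.p6.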

Additional observations from a re-analysis of the deposited data

Results flagged for a closer look

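H3f3a 1423263_PM_at differed in direction between genotypes in WASH minus INPUT: both WT animals were below 0 and both CPEB4 GT/+ animals above 0, a WT minus CPEB4 GT/+ difference of -0.17. The difference was not tested.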

How the results depend on the processing

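The 12 histone probe sets were fitted in up to 16 other settings. For ELUTED minus WASH 184 values kept their side of the threshold, for WASH minus INPUT 170 and for ELUTED minus INPUT 182. Of values called in the main fit or the setting, 1, 2 and 0 turned. Uncalled values that changed sign are counted as kept. Examples are WASH minus INPUT of H3f3b 1420376_PM_a_at (down to -0.10) and 1455725_PM_a_at (down to -0.13), and ELUTED minus INPUT of H3c14 1442051_PM_at (up to 0.02). H3c14 1460314_PM_s_at turned in ELUTED minus WASH with centred arrays (0.22), as did H2az1 (-0.022) and H3f3a 1423263_PM_at (-0.16) in WASH minus INPUT. With arrays aligned on hybridisation controls, ELUTED minus WASH turned for H1f4 (-0.44) and H3c4 1427863_PM_at (-0.35), and WASH minus INPUT for H3c4 1427864_PM_at (0.13) and H3c7 (0.051). The causes were not tested. One probe set per gene, which tests fewer, called 9413, 8284 and 5654 probe sets for ELUTED minus WASH, WASH minus INPUT and ELUTED minus INPUT, with 6, 5 and 6 histones. For INPUT, CPEB4 KO minus WT gave 2 calls without a filter, 11 without the lowest 50%, 361 aligned, 0 with 1 probe set per gene and 12 with trend. CPEB4 KO minus CPEB4 GT/+ gave 1, 5, 365, 0 and 6, and 4 centred. Aligned arrays gave 1 call in CPEB4 GT/+ minus WT and 1 histone in CPEB4 KO minus WT. Leaving out 1 animal gave 12803 to 17113, 11912 to 13377 and 5897 (without WT replicate 1) to 11213 calls for the fractions, with 11 to 11, 8 to 9 and 9 to 12 histones. In INPUT it gave 0 to 371 for CPEB4 KO minus WT (371 without CPEB4 KO replicate 2), 0 to 379 for CPEB4 KO minus CPEB4 GT/+ (379 likewise) and 0 to 0 for CPEB4 GT/+ minus WT; the genotype comparisons of ELUTED minus WASH gave 0 to 0. Histones had 0 to 0 in all genotype comparisons. In ELUTED minus WASH, deviations of same-numbered animals correlated at 0.48 between CPEB4 GT/+ and CPEB4 KO. With WT they correlated at -0.33 (CPEB4 GT/+) and -0.29 (CPEB4 KO). In INPUT the correlations were -0.09 to -0.03. Whether the numbers pair animals was not tested. The replicate block gave 1 call in CPEB4 KO minus WT and 1 in CPEB4 KO minus CPEB4 GT/+ in INPUT. Near-identical histone copies and 2 animals a group limit all values.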
